A study of Mus musculus with 6 samples.

Results

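The Kruppel-like factor genes were measured in mouse kidney samples after ischaemia and reperfusion (I/R), with and without chemerin-9. The members are the rows whose symbol is one of 10 family names, Klf2, Klf3, Klf4, Klf5, Klf6, Klf7, Klf9, Klf10, Klf13 and Klf16, out of 25189 gene symbols with counts. All 6 libraries are labelled as kidney of wild-type male C57BL/6 mice, taken on day 2. The first group of 3 is labelled I/R, in which the kidney loses its blood supply for a time and then regains it. The second group of 3 is labelled I/R with C9, which the series' design text gives as chemerin-9, a peptide fragment of the secreted protein chemerin that acts on its receptor. The age of the animals, the dose, the sham or untreated state and whether each library came from its own mouse are not given in the labels. The p-values therefore speak only to how far these 6 libraries vary, and that variation may be technical. The comparison asks which of these transcription factor genes differed in injured kidney when chemerin-9 was added.

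Kruppel-like factors are transcription factors with zinc fingers at the carboxyl end that bind GC boxes and CACCC boxes, as do the related Sp factors. They fall into groups by the rest of the protein. One group, with Klf3, recruits the co-repressor CtBP. A larger group, with Klf2, Klf4, Klf5, Klf6 and Klf7, mostly activates transcription, and another, with Klf9, Klf10, Klf13 and Klf16, recruits the co-repressor Sin3. In kidney, Klf2 is known from endothelium, Klf4 from podocytes and other epithelia, Klf5 from the collecting duct, and Klf6 as a gene induced soon after injury.

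The libraries held 11217252 to 16938301 counts. No pair within a group was a duplicate: the chi-square divided by its degrees of freedom was 1.82 to 6.16, where sampling noise alone gives 1. I/R replicate 3 differed most from its group (6.16 and 5.61). The share of 18S RNA was between 0.381% and 0.517% in the I/R libraries, against 0.261% and 0.306% in the others. The labels give each library a batch value of its own, which steps up by 1 from sample to sample as the treatment fields of the treated samples do, so it is not known whether these values mark true batches. If they do, batch and treatment cannot be told apart. CPM is a count scaled to the size of its library. As a check of the tissue label, the 6 of 10 nephron marker genes with a row summed to between 24.8 and 25.5 CPM per I/R library, against 22.1 and 27.4 CPM after chemerin-9, most of it from the water channel gene Aqp1. The collecting duct gene Aqp2 averaged 0.0926 and 0.107 CPM, near 0, and the proximal tubule genes Lrp2 and Cubn averaged 2.77 to 3.37 CPM. The 8 of 10 fibroblast and mesenchyme markers with a row summed to 2524 to 2647 and 2017 to 2102 CPM. Most of it came from Vim (means 1366 and 853 CPM), Col1a1 (771 and 800) and Col1a2 (398 and 323). The rest averaged between 0.318 (S100a4 in I/R) and 49.2 CPM (Pdgfrb with chemerin-9). The 2 of 6 general epithelium markers with a row summed to 10.9 to 13.4 and 14.3 to 17.8 CPM. The 3 of 12 leukocyte markers with a row summed to 4.25 to 6.02 and 4.44 to 6.23 CPM. The markers of nephron cells were thus low in libraries labelled as kidney tissue, in both groups.

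Promoter sequences were at hand for 7 of the 10 genes, and those of the 4 genes that fell most and of the gene that rose most are shown, since these carry the contrast between the groups. Each runs from 250 bases before to 50 bases after the RefSeq start on GRCm38.p6, 5′ to 3′ on the strand of the gene. Capitals mark CACCC and GGGCGG on either strand, the letters that the family itself binds.
Klf2, chr8:72318812-72319111, plus strand: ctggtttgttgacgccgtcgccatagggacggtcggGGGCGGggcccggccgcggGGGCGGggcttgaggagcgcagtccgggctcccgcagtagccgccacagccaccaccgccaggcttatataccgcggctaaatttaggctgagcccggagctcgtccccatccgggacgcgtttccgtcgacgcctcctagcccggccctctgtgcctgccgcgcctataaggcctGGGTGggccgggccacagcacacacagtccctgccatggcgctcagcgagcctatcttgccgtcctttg
Klf6, chr13:5861239-5861538, plus strand: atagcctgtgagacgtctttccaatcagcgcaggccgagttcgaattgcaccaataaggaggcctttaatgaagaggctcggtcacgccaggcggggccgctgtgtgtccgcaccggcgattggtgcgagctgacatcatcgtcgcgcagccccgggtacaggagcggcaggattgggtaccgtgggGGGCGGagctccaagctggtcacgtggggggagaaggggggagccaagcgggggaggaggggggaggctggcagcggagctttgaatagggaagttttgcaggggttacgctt
Klf13, chr7:63938866-63939165, minus strand: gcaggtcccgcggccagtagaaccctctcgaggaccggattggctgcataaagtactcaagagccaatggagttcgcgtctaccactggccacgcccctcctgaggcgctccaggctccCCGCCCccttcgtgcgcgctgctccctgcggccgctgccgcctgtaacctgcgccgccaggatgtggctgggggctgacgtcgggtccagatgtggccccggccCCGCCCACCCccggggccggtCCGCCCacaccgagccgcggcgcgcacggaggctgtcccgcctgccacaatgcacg
Klf9, chr19:23140976-23141275, plus strand: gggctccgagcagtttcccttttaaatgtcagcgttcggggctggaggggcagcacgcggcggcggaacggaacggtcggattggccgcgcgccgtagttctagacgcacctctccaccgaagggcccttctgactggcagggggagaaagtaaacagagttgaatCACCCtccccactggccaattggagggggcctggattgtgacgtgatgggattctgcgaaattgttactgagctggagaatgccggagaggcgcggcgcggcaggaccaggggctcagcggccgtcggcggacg
Klf3, chr5:64803271-64803570, plus strand: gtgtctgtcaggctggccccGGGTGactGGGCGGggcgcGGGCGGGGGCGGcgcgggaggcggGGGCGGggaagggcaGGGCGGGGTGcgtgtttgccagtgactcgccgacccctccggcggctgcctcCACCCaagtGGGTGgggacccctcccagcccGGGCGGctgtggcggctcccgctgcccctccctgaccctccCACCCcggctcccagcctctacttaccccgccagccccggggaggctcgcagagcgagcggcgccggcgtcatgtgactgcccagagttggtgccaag

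The promoter of Klf3, the gene that rose most, held 6 GC boxes (GGGCGG) and 5 CACCC boxes, a pair of them overlapping. Among the genes that fell, Klf2 had 2 GC boxes and 1 CACCC box, Klf13 had 3 and 1, Klf6 had 1 GC box and no CACCC box, and Klf9 had 1 CACCC box and no GC box. A GC box was found in 6 of the 7 promoters, and in 35.7% of all 32851 promoters of the same length. The 7 promoters were 58.3% to 76.7% G or C, against a median of 52.7% over all promoters. The shares given here were not adjusted for that. CACCC was found in 5 of the 7 and in 57.5% of all. CCAAT was found in Klf6 with 4 matches, in Klf9 with 3 and in Klf13 with 2, against 37.4% of all promoters, and in none of Klf2, Klf3, Klf4 and Klf7. Only Klf2 of the 7 held a MEF2 site, the target of the MEF2 factors, beginning at position -118 from the start. This site occurs in 0.56% of all promoters and overlapped no other motif searched. TATAAA, the heat shock element GAANNTTC and the CArG box were in none of the 7 windows. All motifs were searched on both strands. Matches are descriptions of these letters and not binding sites.

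Chemerin-9 went with lower RNA of 7 of the 10 genes, Klf2, Klf5, Klf6, Klf7, Klf9, Klf13 and Klf16, and higher RNA of 2, Klf3 and Klf4. Klf10 did not pass. All 10 passed the filter on low counts, Klf2 only through its I/R libraries. In edgeR's quasi-likelihood test at a Benjamini-Hochberg adjusted p under 0.05, 51.7% of the 14184 tested genes were called, 25.6% higher and 26.1% lower. That share is the background for these counts, and a large part of all genes differed between the groups. Scaled by the library total alone, 60.7% of all calls were higher, against 49.6% with the main scaling, and the direction of all 10 members stayed as it was. In 9 of the 10 genes the 3 values of one group lay outside the range of the other, as in 58.5% of all tested genes. The median log2 fold change of the members was -0.43, against -0.0037 over all tested genes, and the median size of the change, whatever its sign, was 0.43 against 0.27. Changes of at least 1.5-fold were called in 4 members, Klf2, Klf6, Klf9 and Klf13, and in 15.9% of tested genes. One member, Klf2, was called at 2-fold or more, as were 5.97% of tested genes. These are bulk RNA values, in which fewer cells of a type and less RNA per cell cannot be told apart.

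**Figure D1:**
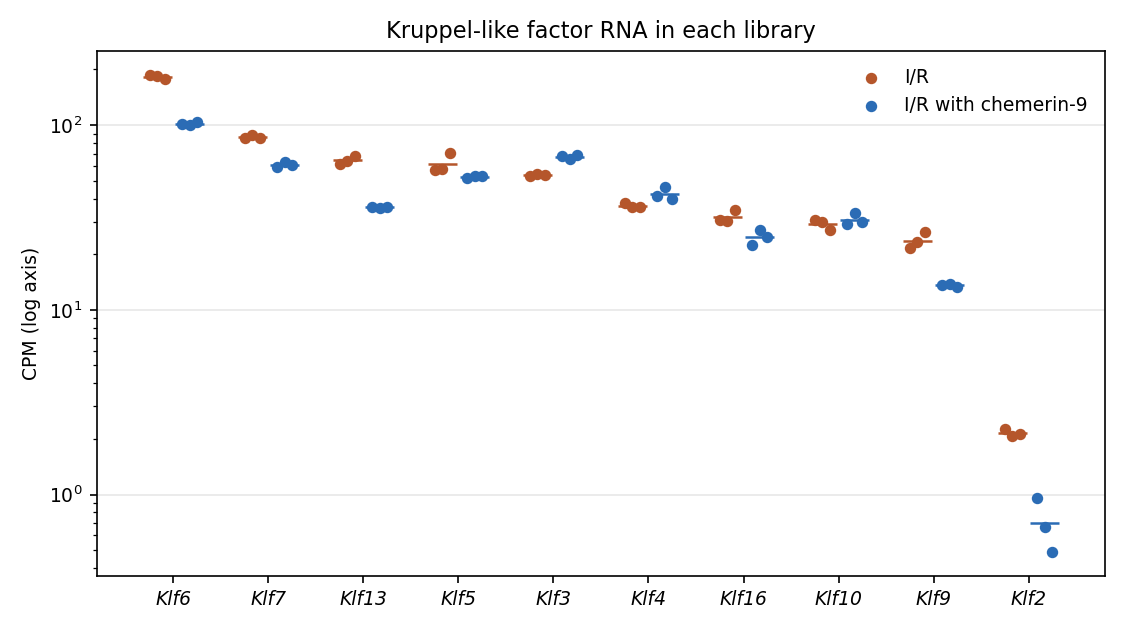
CPM of the 10 genes on a log axis, by gene from the highest I/R mean to the lowest, with 1 point per library and a bar at the mean of each group of 3. In Klf6, Klf7, Klf13, Klf9 and Klf2 all points with chemerin-9 lie well below those of I/R, and in Klf3 and Klf4 above.

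Among the activators, Klf6 was the most abundant and fell most clearly. Klf6 (ENSMUSG00000000078, chromosome 13 from 5861482 to 5870394, GRCm38), a growth-restraining factor, stood at 188, 184 and 178 CPM in the I/R libraries, against 102, 99.9 and 104 CPM after chemerin-9. The groups lay far apart, with 1168 to 2926 counts behind each value. Its mean went from 183 ± 5.07 to 102 ± 1.87 CPM (SD, n = 3 each), with a log2 fold change of -0.85 ± 0.04 (SE) and an edgeR adjusted p of 4.2e-10. Its close relative Klf7 (ENSMUSG00000025959, chromosome 1 from 64029447 to 64122282), known from axon growth and fat cells, stood at 85.2, 87.8 and 84.6 CPM, against 59.4, 63.1 and 61.0 CPM after chemerin-9. All 3 treated values were below the I/R values, and the log2 fold change was -0.49 ± 0.05 (SE; edgeR adjusted p = 8.4e-07). The antisense gene Gm26649 shares 3196 exon bases with Klf7 on the opposite strand and has no row of that name among the counts. Since it is not stated whether the counting used strand, reads of Klf7 and of this gene cannot be told apart.

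Klf2 had the largest fold change and the fewest counts. This gene (ENSMUSG00000055148, chromosome 8 from 72319033 to 72321656), which laminar flow induces in endothelium, had 29, 28 and 35 counts in the I/R libraries, against 11, 9 and 7 after chemerin-9. On the CPM scale these were 2.27, 2.08 and 2.12, against 0.959, 0.663 and 0.490. Every value with chemerin-9 was below every I/R value, with more relative spread than within I/R. The means were 2.16 ± 0.0996 and 0.704 ± 0.237 CPM (SD, n = 3 each), and the fold fitted by edgeR was 3.10 in favour of I/R. The log2 fold change was -1.63 (95% interval -2.33 to -0.93, edgeR adjusted p = 7.1e-04), larger in size than in 98.5% of tested genes. Klf2 passed the filter on low counts through its I/R libraries, the group in which it was high. Its size and rank among tested genes are therefore descriptions with that limit. With no filter on low counts the log2 fold change was -1.64. The 6 of 10 endothelial markers with a row summed to between 6.39 and 7.46 CPM per I/R library, against 11.1 and 12.9 CPM after chemerin-9, most of it from Flt1, a receptor for vascular growth factors. Of these 6, 2 passed the filter and 1 of them was called higher. Among those under the filter, the adhesion gene Pecam1 averaged 0.119 and 0.478 CPM and the adhesion gene Cdh5 0.483 and 0.389 CPM. Their part in the value of Klf2 was not tested.

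Klf4 and Klf5 differed little, and their calls were lost when some of the libraries were left out singly. Klf4 (ENSMUSG00000003032, chromosome 4 from 55527143 to 55532466), a factor of epithelial differentiation and pluripotency, stood at 37.8, 36.0 and 36.1 CPM in I/R, against 41.2, 46.2 and 39.6 CPM after chemerin-9. The groups did not overlap, and replicate 2 with chemerin-9 was the highest. The log2 fold change was 0.21 (95% interval 0.06 to 0.36, edgeR adjusted p = 0.021). Without chemerin-9 replicate 2 it was 0.14 (adjusted p = 0.127), and without I/R replicate 2 it was 0.19 (adjusted p = 0.061). Klf5 (ENSMUSG00000005148, chromosome 14 from 99298691 to 99315036), which promotes growth of epithelial cells, stood at 57.4, 58.0 and 70.4 CPM in I/R, against 51.4, 52.8 and 53.3 CPM after chemerin-9. I/R replicate 3, the library that differed most from its group, was the highest, and the other 2 I/R values were close to those with chemerin-9. The log2 fold change was -0.24 (95% interval -0.40 to -0.09, adjusted p = 0.012, edgeR), against -0.14 (adjusted p = 0.072) without I/R replicate 3.

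Klf3, the CtBP-dependent repressor of the basic group, had the largest rise. It (ENSMUSG00000029178, chromosome 5 from 64803388 to 64832901) stood at 53.0, 54.6 and 53.5 CPM in I/R, against 68.2, 65.2 and 68.8 CPM after chemerin-9. The groups were well separated, and the mean went from 53.7 ± 0.827 to 67.4 ± 1.89 CPM (SD, n = 3 each). The rise was 1.25-fold (log2 fold change 0.33 ± 0.05 SE, edgeR adjusted p = 7.6e-05), larger in size than in 58.3% of tested genes. The antisense gene Gm20033 shares 404 exon bases with Klf3 but had only 11 counts over the 6 libraries.

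**Figure D2:**
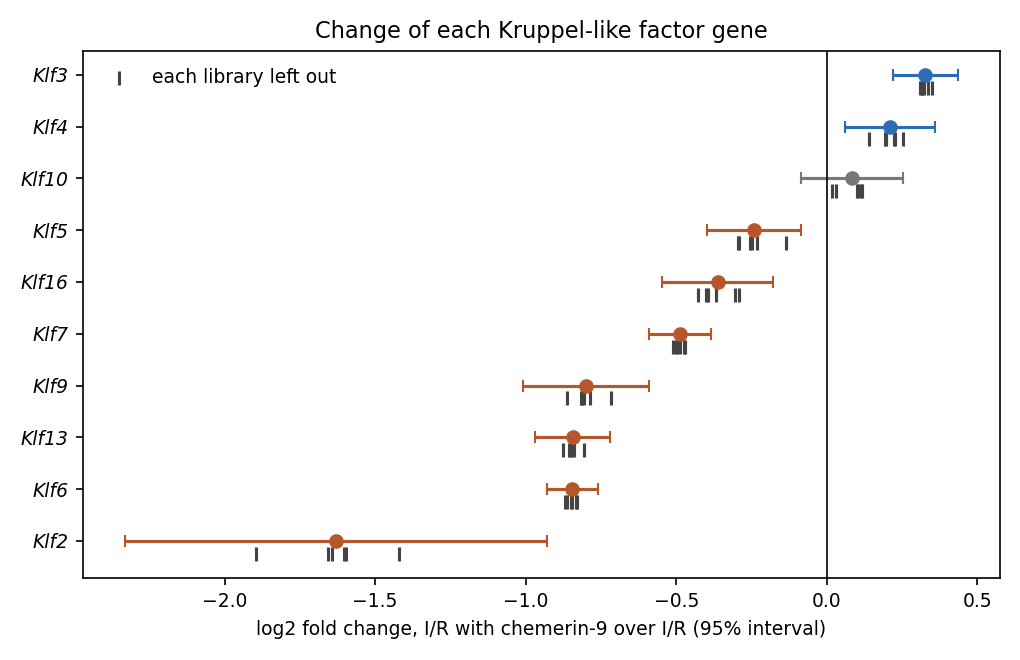
Log2 fold change of each gene, I/R with chemerin-9 over I/R, with its 95% interval from edgeR, in orange where called lower, blue where called higher and grey where not called. The ticks under each point are the values with each library left out, which move furthest relative to their size for Klf5, Klf4 and Klf10 and stay on the same side of 0 for all 10 genes.

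In the Sin3-recruiting group 3 of 4 genes fell, where 26.1% of all tested genes were called lower. With 4 genes this count only describes the members and is no result about the group. Klf13 (ENSMUSG00000052040, chromosome 7 from 63886351 to 63938915), known as an activator of the chemokine gene Ccl5 in T cells, stood at 61.8, 63.5 and 67.7 CPM in I/R, against 35.8, 35.7 and 36.2 CPM after chemerin-9. Its values with chemerin-9 were nearly equal, and the I/R values were all far above them (log2 fold change -0.84 ± 0.06 SE, edgeR adjusted p = 2.0e-08). Klf9 (ENSMUSG00000033863, chromosome 19 from 23141226 to 23166911), which glucocorticoid and thyroid hormones induce, stood at 21.5, 23.2 and 26.2 CPM in I/R, against 13.7, 13.9 and 13.4 CPM after chemerin-9. The groups did not overlap, and I/R replicate 3 was the highest (log2 fold change -0.80 ± 0.10 SE, edgeR adjusted p = 7.8e-06). Without that library the log2 fold change of Klf9 was -0.72.

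Klf16 (ENSMUSG00000035397, chromosome 10 from 80567124 to 80577321), first described as a regulator of dopamine receptor genes, stood at 30.5, 30.2 and 34.8 CPM in I/R, against 22.5, 26.9 and 24.8 CPM after chemerin-9. The nearest values of the groups were 30.2 and 26.9 CPM (log2 fold change -0.36 ± 0.09 SE, edgeR adjusted p = 2.6e-03). After removal of a trend on GC and length it was -0.24 (adjusted p = 0.016). Klf10 (ENSMUSG00000037465, chromosome 15 from 38291463 to 38300706), a gene that transforming growth factor beta induces, stood at 30.5, 29.9 and 27.1 CPM in I/R, against 29.1, 33.5 and 29.9 CPM after chemerin-9. Its groups overlapped, and the log2 fold change was 0.08 (95% interval -0.09 to 0.25, edgeR adjusted p = 0.40).

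**Figure D3:**
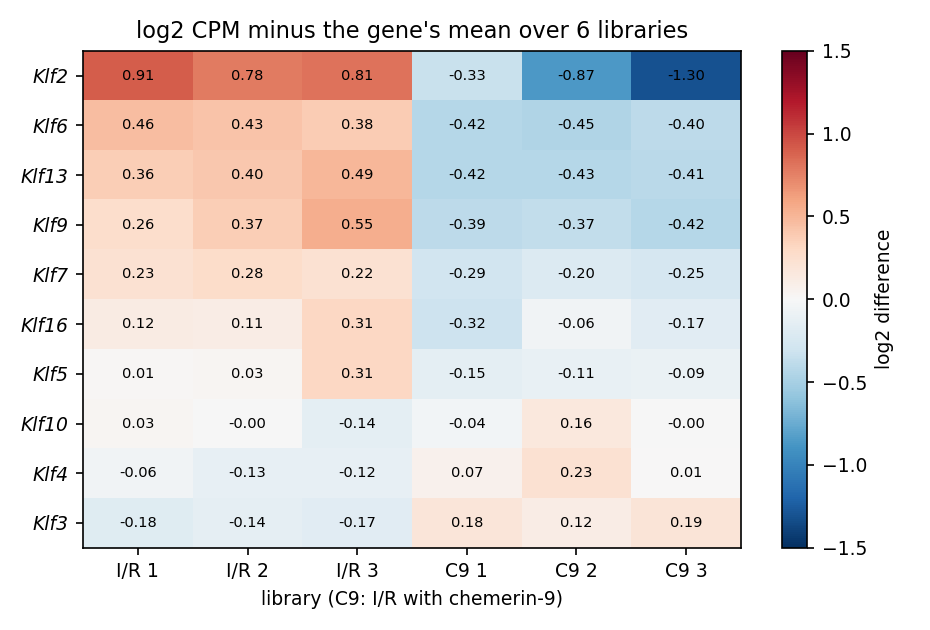
Log2 CPM of each gene in each library minus its mean over the 6 libraries, in red above and blue below that mean. Klf2, Klf6, Klf13, Klf9, Klf7, Klf16 and Klf5 are positive in all I/R libraries and negative in all with chemerin-9, Klf3 and Klf4 have the opposite signs, and Klf5 in I/R replicate 3 (0.31) is far above the other I/R values (0.01 and 0.03).

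To compare levels between genes, CPM were divided by the kilobases of exon annotated for each gene. In I/R, Klf6 stood first at 41.7 ± 1.15 CPM per kilobase (SD, n = 3), and no other gene came near it. Klf4, Klf5 and Klf16 followed at 12.0, 11.9 and 11.9 CPM per kilobase and could not be ordered, since their ranges overlapped. Klf7 was at 10.6, Klf13 at 8.54 and Klf10 at 6.98 CPM per kilobase, each apart from its neighbours. Klf9 at 4.91 and Klf3 at 4.78 CPM per kilobase overlapped, and Klf2 was last at 1.17. With chemerin-9 the order changed in its lower part. Klf6 still led at 23.2 ± 0.425 CPM per kilobase, followed by Klf4 at 13.9, now apart from Klf5 at 10.1. Klf3 at 5.99 CPM per kilobase stood above Klf13 at 4.76 and Klf9 at 2.83, with no overlap between neighbours, where in I/R Klf13 had stood above Klf3. Klf7 and Klf10, at 7.52 and 7.37, overlapped.

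Summed over the 10 genes, the level was 572 ± 6.78 CPM (SD, n = 3) in I/R, against 431 ± 6.87 CPM (SD, n = 3) after chemerin-9. Of their summed level per kilobase, Klf6 made up 36.4% ± 1.40 in I/R and 27.2% ± 1.08 with chemerin-9. The share of Klf4 was 10.5% ± 0.346 and 16.3% ± 0.983, and that of Klf3 was 4.17% ± 0.0999 and 7.03% ± 0.361. These shares sum to the whole, so a lower share of Klf6 raises the others. The share of Klf7 was 9.23% ± 0.286 and 8.82% ± 0.0530, and that of Klf16 was 10.4% ± 0.710 and 10.8% ± 0.707.

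**Figure D4:**
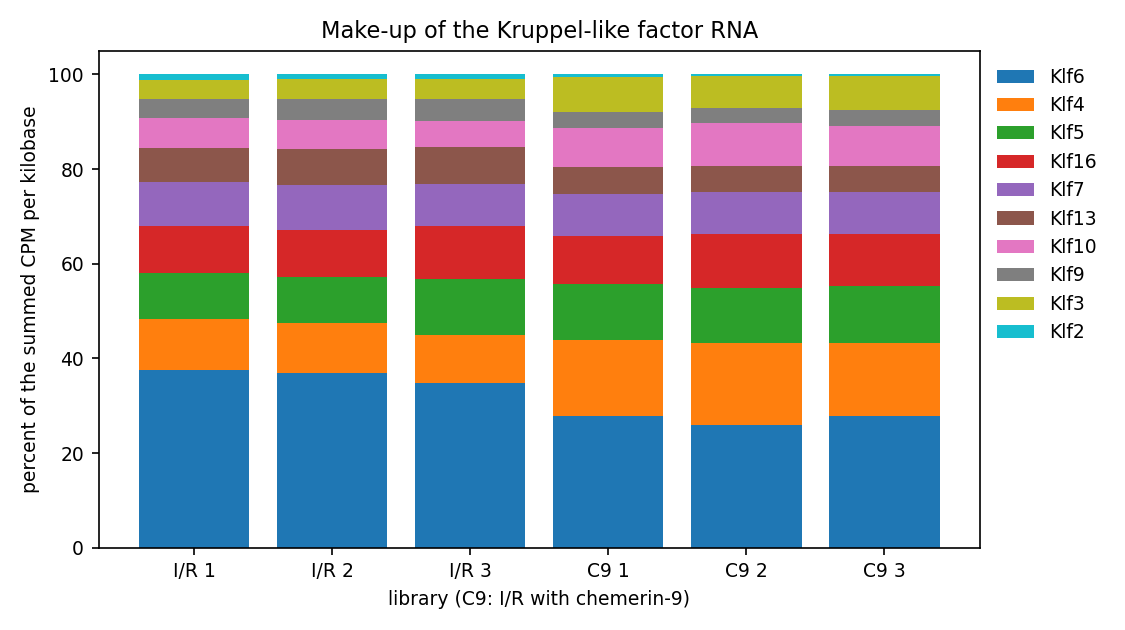
Share of each gene in the summed CPM per kilobase of the 10 genes, as stacked bars from 0 to 100 percent for each library. The lowest block, Klf6, is 34.8% to 37.5% in the I/R libraries and 26.0% to 27.9% with chemerin-9.

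The balance between relatives was compared in 6 pairs by their ratio within each library, which no scaling of the library can move. The Klf6 to Klf7 ratio, per kilobase, was 4.08, 3.88 and 3.89 in I/R and 3.17, 2.93 and 3.15 with chemerin-9. Each value with chemerin-9 was below each I/R value. The Klf7 reads in it cannot be told apart from those of the antisense gene Gm26649. The Klf2 to Klf4 ratio was 0.0972 ± 0.0019 in I/R and 0.0275 ± 0.0096 with chemerin-9 (SD, n = 3 each). Klf2 had only 28 to 35 counts per I/R library and 7 to 11 with chemerin-9, so the small SD in I/R is no measure of precision. The Klf6 to Klf3 ratio was 9.06, 8.62 and 8.50 in I/R, against 3.82, 3.92 and 3.86. The Klf13 to Klf16 ratio was 0.720 ± 0.0284 and 0.518 ± 0.0474, and the Klf5 to Klf4 ratio 0.992 ± 0.134 and 0.730 ± 0.0594. In these 5 pairs the groups did not overlap. Each had the smallest p that 3 against 3 libraries allow in a two-sided exact permutation test (p = 0.1, adjusted p = 0.12 over the 6 pairs). For Klf2 to Klf4, Klf5 to Klf4 and Klf6 to Klf3 this had to follow from the single genes. The first gene was lower and the second higher in every library with chemerin-9. Other gene pairs were not compared. The Klf9 to Klf13 ratio was 0.574 ± 0.0309 and 0.594 ± 0.0151, with overlapping groups (n = 3 each, exact permutation p = 0.4).

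Of the other family genes, 3 had a row. Klf11, the closest relative of Klf10, fell from 25.1 ± 0.696 to 15.2 ± 1.03 CPM (SD, n = 3 each; log2 fold change -0.72, adjusted p = 7.6e-06, edgeR), while Klf10 did not pass. Klf15, known from podocytes, was at 0.815 ± 0.285 and 1.43 ± 0.410 CPM and did not pass (adjusted p = 0.082, edgeR), and the erythroid gene Klf1 was under the filter. Of the related Sp genes, 5 were tested, 2 fell and 1 rose (median log2 fold change -0.35). Sp1, the founding member, fell from 545 ± 19.4 to 389 ± 13.0 CPM, and Sp4 fell from 32.8 ± 1.65 to 22.0 ± 2.89 CPM. Sp3, which binds the same GC boxes, rose from 90.6 ± 3.10 to 101 ± 3.47 CPM. The background of 51.7% called holds for all lists here.

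The partners of the family were split in direction. Of 13 cofactor genes, 4 rose, 4 fell and the others did not pass (median log2 fold change 0.04). The Sin3 scaffold genes Sin3a and Sin3b fell by 0.33 and 0.28 (log2). The histone deacetylase genes Hdac1 and Hdac2 rose by 0.39 and 0.33 (log2). Both CtBP genes did not pass, with Ctbp1 at 179 ± 4.60 and 188 ± 5.32 CPM (adjusted p = 0.143, edgeR). In the ERK5 to MEF2 pathway, which induces Klf2 and Klf4 in endothelium, 3 of 7 tested genes rose and 3 fell (median -0.03). Mapk7, which encodes ERK5, fell from 32.3 ± 1.23 to 20.4 ± 1.95 CPM, and Mef2d fell by 0.41 on the log2 scale, while Mef2a rose by 0.23. Of 7 ubiquitin ligase genes whose products act on Kruppel-like factor proteins, 3 rose and the other 4 did not pass (median 0.15). Wwp1, a ligase of the KLF2 and KLF5 proteins, rose from 106 ± 3.63 to 152 ± 3.43 CPM, Vhl rose from 42.9 ± 2.14 to 65.1 ± 2.18 CPM and Smurf2 by 0.15 on the log2 scale.

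In a list of glucocorticoid-induced genes, to which the receptor gene Nr3c1 was added, 6 were tested, 3 fell and 1 rose (median -0.33). The one that rose was Nr3c1 itself, by 0.18 on the log2 scale (adjusted p = 0.012, edgeR). Dusp1 fell by 0.74, the clock gene Per1 by 0.70 and the kinase gene Sgk1 by 0.62 on the log2 scale, while Fkbp5, a standard marker of the hormone, was at 63.6 ± 1.38 and 70.0 ± 5.87 CPM and did not pass (adjusted p = 0.065, edgeR). Of 13 tested genes reported as targets of the family, 7 fell and 2 rose (median -0.25). The growth factor gene Tgfb1, a target of KLF6, fell from 30.4 ± 3.44 to 16.0 ± 0.784 CPM. Ccnd1, the cyclin that drives entry into the cell cycle, rose from 33.5 ± 2.83 to 59.6 ± 3.95 CPM, and Birc5, a survival gene, fell by 0.46 on the log2 scale. Nos3, the endothelial target of KLF2, was under the filter at 0.901 ± 0.642 and 0.271 ± 0.221 CPM. Of the pluripotency partners of Klf2, Klf4 and Klf5, 4 were tested and 1 was called, the transcription factor gene Tfcp2l1, which rose from 3.27 ± 0.551 to 5.27 ± 0.354 CPM. Myc stood at 63.3 ± 4.50 and 63.5 ± 2.49 CPM.

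The pattern over the 6 libraries most like that of Klf3 was that of the lactate transporter gene Slc16a1, with a root mean square difference of 0.011 in centred log2 CPM, followed by Arf2 (0.017) and Zfp40 (0.019) among 9342 genes with a mean of at least 10 CPM. Among the genes nearest to Klf2 were Ubald1 (0.189) and Prdm10 (0.195), both at a larger distance, with Klf2 itself at few counts.

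In the authors' deposited table, 8 of the 10 genes had an FDR under 0.05, and the log2 fold changes there had the same signs. Over all 25189 symbols the share was 23.9%. That share has no filter on low counts and includes 622 symbols with no count in any library. All 10 members passed the filter, so it is not a like background for them. Klf4 was the member whose call differed, with an FDR of 0.075 in the authors' deposited table. The authors' deposited table gave Klf10 an FDR of 0.63 and Klf6 a log2 fold change of -0.85.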

How the data were processed

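Per the labels' protocols, RNA was isolated with a reagent from Qiagen and sequenced from stranded mRNA libraries (Vazyme kit). The submitters' processing notes list HISAT2, HTSeq, DESeq 1.18.1 and mm10. Neither the gene annotation nor whether counting used strand is given in the sources used here. The values deposited for the 6 libraries are raw counts, whole numbers with unequal totals, in rows named by gene symbol. The file also has the authors' log2 fold change, the linear fold ratio, the p-value and the FDR per gene, deposited by the authors with no settings stated. Of 25216 rows, 27 repeated a symbol and were removed, and no row named no gene.

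Titles gave the groups and replicate numbers. For the treated samples all 3 titles say C9, whereas their treatment fields run C9, C10, C11, and the titles were used. Their columns are headed IC in the table, a name absent from the labels, which give S. IC was taken to stand for I/R plus C9, and each result on chemerin-9 depends on this.

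The test was that of edgeR 4.0.16 under R 4.3.3 (TMM factors, filterByExpr, quasi-likelihood fit on group alone, Benjamini-Hochberg adjustment over 14184 genes, threshold 0.05), with limma 3.58.1 and DESeq2 1.42.0 as alternatives. Fold changes are I/R with chemerin-9 over I/R, and CPM use the TMM-adjusted library size. Standard errors are the log2 fold change over the root of F. Exon lengths are the union of GENCODE M21 exons on GRCm38, whose gene starts were those of the table for 97.5% of matched genes. This union counts all annotated exons and can understate the level per kilobase of a gene with rarely used exons. Near-identical transcripts were looked for with BLAST 2.17.0 (identity of 95% or more along 50% or more of the shorter one). Other than the antisense gene of Klf7, only 4 short transcripts, which match Klf3 at 96.2% over 105 bases, were found. Promoters are from RefSeq on GRCm38.p6.

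The named genes are the 10 members, at most 3 genes of each list by smallest p, and for the member that rose most and the one that fell most the 3 tested genes nearest in centred log2 CPM (prior count 2), of which 1 is not reported here. Sin3b, Ctbp1, Mef2a, Fkbp5, Nr3c1, Nos3, Myc and the marker genes given with values fall outside that rule and were chosen after their values were seen. The members and lists were chosen with earlier results of these data known. Genes are said to rise or fall only at an adjusted p under 0.05.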

Additional observations from a re-analysis of the deposited data

How the results depend on the processing

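Under 16 alternatives for each gene (RLE, upper quartile or no composition factors, DESeq2, limma-voom, a robust prior, other filters, the replicate block, GC and length trend removed, and each library left out), the log2 fold changes of all 10 genes kept their sign, and Klf2, Klf3, Klf6, Klf7, Klf9, Klf13 and Klf16 kept their calls. Klf10 passed under none. With each library left out, Klf4 ranged from 0.14 to 0.25 and Klf5 from -0.30 to -0.14, and both calls were lost under some of these. The call of Klf5 was also lost with library size only (-0.17, adjusted p = 0.058). The cause was not tested. The members called higher were 1 to 2 with each library left out and those called lower 6 to 7. Over all genes the calls then numbered 3179 to 3632 higher and 3220 to 3691 lower. With the replicate number as a block, 2 members were higher and 7 lower, and 3608 and 3692 of all genes. Deviations from the group mean had a correlation over genes of 0.26, -0.18 and 0.076 between same-numbered libraries. Between libraries of different number it was -0.33 to 0.27. With 3 libraries per group these values cannot settle whether the numbers mark pairs. No alternative reversed a result. Depth limits Klf2 most, with 7 to 35 counts per library.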
